A study of Mus musculus with 6 samples.

Results

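The 37 genes of the mouse mitochondrial chromosome were the rows that the deposited table places on chromosome M, 37 of 19225 listed genes. They comprised 13 protein genes, 2 ribosomal RNA (rRNA) genes and 22 transfer RNA (tRNA) genes, with 28 genes on the plus strand and 9 on the minus strand. RNA was measured in CD11b+ cells, which are enriched microglia, from 3 mice labelled Cnr1+/+ and 3 labelled Cnr1-/-, with 1 library per mouse. The control mice carry the strain label C57BL6/J, and the others the label Cnr1 tm1Zim with the genotype d/d, a constitutive deletion of cannabinoid receptor 1 made by a neomycin cassette in the coding region. The authors describe the mutant line as backcrossed to C57BL/6J, with littermates of both genotypes used for their experiments. All 6 mice were stress-naive males labelled as 3 months old, and the cells came from whole brain without cerebellum by magnetic beads. The libraries were 3′ mRNA libraries (QuantSeq FWD), which are primed on runs of A and read near the 3′ end of a transcript. Values were counts scaled by the authors to a library size of 1000000 (cpm).

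Mitochondria keep a small circular chromosome of their own. Its protein genes encode subunits of respiratory complexes I, III and IV and of ATP synthase (complex V), which carry out oxidative phosphorylation, and its rRNAs and tRNAs serve the mitochondrial ribosome. Both strands are transcribed as long precursors that are cut at the tRNAs, so that neighbouring genes leave one transcript, and most of the messengers and rRNAs then receive a short A tail. The nuclear genome encodes every protein needed to copy, transcribe and process this chromosome and most subunits of the same complexes, and it also holds inserted copies of mitochondrial sequence.

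Effective library sizes, taken from the value of 1 read, ran from 7708812 to 10723826 reads, and the listed genes held 50.1 to 59.1% of each library's scaled total. The receptor gene Cnr1 stood at 0 in all 3 Cnr1+/+ libraries (3 reads there correspond to at most 0.389 cpm) and at 1.41, 1.21 and 1.79 cpm in those labelled Cnr1-/-, each at least 3.12-fold above that floor. This went against the labels, although a read near the 3′ end need not come from the disrupted coding region, so every direction here is one between labels. The 12 microglia markers were all listed, with summed levels of 16566 to 19253 cpm. The library labelled Cnr1-/- 2 stood apart in blood cell RNA, with 4117 cpm over 11 neutrophil markers and 2329.8 cpm over 5 erythrocyte markers, against 270.2 to 532 cpm and 136 to 237 cpm in the other libraries. All 11 and all 5 of these markers were listed, and 1 of 7 lymphocyte markers was, at up to 1.68 cpm.

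Many mitochondrial messengers have little sequence beyond their coding part, so the end of a gene often lies near the A tail from which a 3′ library is primed. Of the 13 protein genes as annotated, 10 ended in a complete stop codon and 3 (mt-Co3, mt-Nd4 and mt-Cytb) in a lone T that the A tail completes. In mt-Nd1 and mt-Nd2 the last 2 bases are also the first 2 of a tRNA gene on the same strand (mt-Ti and mt-Tw). Their annotated end therefore need not be the end of the messenger. The last 30 bases of a gene of each kind are printed here from GENCODE vM21 transcripts of GRCm38 (mm10), 5′ to 3′ on the gene's own strand, with the encoded stop bases in capitals; mt-Atp8 is shown because its whole end lies inside mt-Atp6, and mt-Nd6 because it is the only protein gene of the minus strand.
mt-Nd4, chrM:11515-11544, + strand: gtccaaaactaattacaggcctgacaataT
mt-Cytb, chrM:15259-15288, + strand: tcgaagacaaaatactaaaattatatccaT
mt-Co2, chrM:7667-7696, + strand: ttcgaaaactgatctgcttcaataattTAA
mt-Atp8, chrM:7940-7969, + strand: tatttgcctcattcattaccccaacaaTAA
mt-Nd6, chrM:13552-13581, - strand: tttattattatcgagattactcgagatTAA

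Runs of A inside a transcript can be primed as well, and the rRNAs hold the densest of them among the 37 genes. The window of 20 bases with the most A is in capitals in the 2 rRNA stretches, with 15 A in mt-Rnr1 and 16 in mt-Rnr2, and the longest run of A is in capitals in the tRNAs mt-Th and mt-Tr, with 6 and 8 A. Where the reads of a gene begin was not analysed here.
mt-Rnr1, chrM:705-764, + strand: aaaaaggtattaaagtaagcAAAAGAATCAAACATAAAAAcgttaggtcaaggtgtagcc
mt-Rnr2, chrM:1468-1527, + strand: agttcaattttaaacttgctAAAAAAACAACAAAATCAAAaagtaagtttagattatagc
mt-Th, chrM:11546-11612, + strand: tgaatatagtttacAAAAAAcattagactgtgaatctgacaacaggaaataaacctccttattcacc
mt-Tr, chrM:9808-9875, + strand: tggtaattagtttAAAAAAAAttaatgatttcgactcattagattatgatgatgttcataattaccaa

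The summed level of the mitochondrial chromosome did not separate the labels. It was 39927, 43104 and 29156 cpm in the libraries labelled Cnr1+/+ 1, 2 and 3 and 39366, 41539.7 and 49594 cpm in those labelled Cnr1-/- 1, 2 and 3, which is 5.37 to 8.54% of the listed total. The lowest library was Cnr1+/+ 3 and the highest Cnr1-/- 3, and the other 4 lay between 39366 and 43104 cpm with the labels interleaved. The mean was 37396 ± 7310.2 cpm (SD, n = 3) for Cnr1+/+ and 43500.1 ± 5388 cpm (SD, n = 3) for Cnr1-/-, a log2 ratio of 0.22 (two-sided exact permutation p = 0.5; 3 against 3 libraries cannot go below 0.1). With each library centred on its median, with quantile normalisation and with equal totals without the mitochondrial chromosome, the log2 ratio was 0.13, 0.10 and 0.11. In bulk RNA, fewer cells of a type and less RNA per cell cannot be told apart. The 6 astrocyte markers also had their lowest sum in Cnr1+/+ 3 (298 cpm) and their highest in Cnr1-/- 3 (549 cpm), with 427, 471, 387 and 479.7 cpm in the libraries Cnr1+/+ 1, Cnr1+/+ 2, Cnr1-/- 1 and Cnr1-/- 2. Of the 6, 2 (Slc1a2 and Aldoc) were lowest in Cnr1+/+ 3 and 4 were highest in Cnr1-/- 3. The 8 neuron markers summed to 41.2 to 69.8 cpm under the Cnr1+/+ label, and to 54.1 to 62.5 cpm under Cnr1-/-, and the sum was lowest in Cnr1+/+ 3 through 1 marker, Nrgn (15.4 cpm there). The 5 endothelial markers summed to 25.0 cpm or more in each library under the Cnr1+/+ label and to 16.2 to 24.9 cpm under Cnr1-/-, lowest in Cnr1-/- 3, and the groups did not overlap by a narrow margin. No marker of these lists was at 0 in all 6 libraries, and the part of these cells in the level of the mitochondrial RNAs was not tested.

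The classes of RNA within the chromosome were summed separately. The 13 protein genes together were at 20091, 18298 and 16389 cpm in the libraries labelled Cnr1+/+ 1, 2 and 3 and 20861, 20440.3 and 26104 cpm in those labelled Cnr1-/- 1, 2 and 3. All 3 libraries labelled Cnr1-/- lay above all 3 labelled Cnr1+/+, by a narrow margin between Cnr1+/+ 1 and Cnr1-/- 2 (log2 ratio 0.30, exact permutation p = 0.1, the smallest possible). The groups overlapped under each of the 3 other scalings, where the log2 ratio was 0.22, 0.12 and 0.19. The 2 rRNAs were at 19264, 24272 and 12351 cpm in the libraries labelled Cnr1+/+ 1, 2 and 3 and 18017, 20446 and 22899.9 cpm in those labelled Cnr1-/- 1, 2 and 3. Here Cnr1+/+ 2 was the highest library and Cnr1+/+ 3 the lowest, a 1.97-fold range within one label, and the groups overlapped (exact permutation p = 0.7). The 22 tRNAs summed to only 415 to 653 cpm, highest in Cnr1-/- 2 (exact permutation p = 0.4). Set against the protein genes within each library, the classes did not separate the labels, with an exact permutation p of 0.8 for the ratio of rRNA and 0.7 for that of tRNA.

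**Figure D1:**
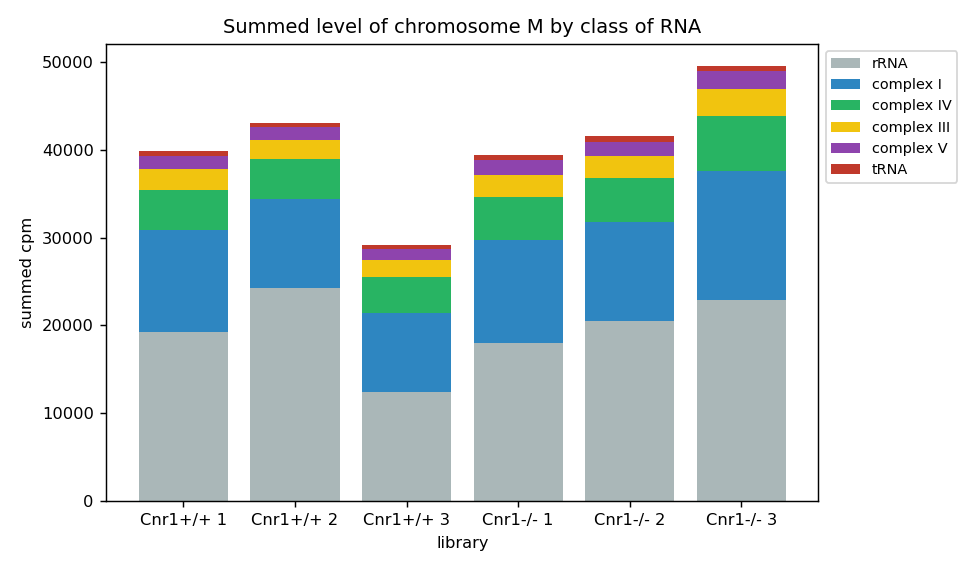
Summed level of the mitochondrial chromosome in each library (cpm, vertical axis from 0), stacked by class of RNA: rRNA, subunits of complexes I, IV, III and V, and tRNA. The rRNA part varied most, from 12351 cpm in Cnr1+/+ 3 to 24272 cpm in Cnr1+/+ 2, and the whole bar was lowest in Cnr1+/+ 3 and highest in Cnr1-/- 3.

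As shares of the chromosome's own total, which do not move with the scaling between libraries, the groups overlapped for rRNA, tRNA, protein genes and each complex. Protein genes made up 50.3, 42.5 and 56.2% under the Cnr1+/+ label and 53.0, 49.2 and 52.6% under the Cnr1-/- label (exact permutation p = 0.8). The rRNA share was 48.2, 56.3 and 42.4% under the Cnr1+/+ label and 45.8, 49.2 and 46.2% under the Cnr1-/- label (exact permutation p = 0.8). For the tRNAs the share ran from 1.19 to 1.57% (exact permutation p = 0.9). The ratio of rRNA to protein RNA was 0.754 to 1.33, with both ends of this range among the libraries labelled Cnr1+/+. These shares and this ratio, like the class sums above, leave out reads that the counting placed on nuclear copies of protein genes. Those copies on chromosome 1 held 7690.4 to 11529 cpm per library. Where such reads belong to the mitochondrial chromosome, the protein shares are too low and the rRNA shares too high. With the rRNAs left out of the total, the share of complex V was 7.35, 7.62 and 7.64% under the Cnr1+/+ label and 7.89, 7.70 and 7.66% under the Cnr1-/- label, and its groups did not overlap by a narrow margin (exact permutation p = 0.1, the smallest possible). In the same total the groups overlapped for complexes I, III and IV (exact permutation p = 0.9, 0.3 and 0.8). Among the 37 members, 1 (mt-Atp8) had a share of the whole chromosome whose groups did not overlap.

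The 2 rRNAs were the most abundant members, also per length. mt-Rnr1, the 12S rRNA of the small ribosomal subunit (chrM:70-1024, plus strand), was at 5917, 6616 and 3379 cpm in the libraries labelled Cnr1+/+ 1, 2 and 3 and 4934, 5800.3 and 6268 cpm in those labelled Cnr1-/- 1, 2 and 3. mt-Rnr2, the 16S rRNA of the large subunit (chrM:1094-2675, plus strand), was at 13347, 17656 and 8972 cpm in the libraries labelled Cnr1+/+ 1, 2 and 3 and 13083, 14646 and 16632 cpm in those labelled Cnr1-/- 1, 2 and 3. Both were lowest in Cnr1+/+ 3 and highest in Cnr1+/+ 2. Their log2 fold changes, Cnr1-/- over Cnr1+/+, were 0.15 ± 0.18 (SE; adjusted p = 0.946) and 0.20 ± 0.20 (SE; adjusted p = 0.921) (limma, Benjamini-Hochberg over 6659 genes). Without Cnr1+/+ 3 both turned to the other direction, to -0.15 and -0.061. The 16S to 12S ratio was 2.26, 2.67 and 2.66 under the Cnr1+/+ label and 2.65, 2.53 and 2.65 under the Cnr1-/- label, so that the lowest and the highest ratio both belonged to libraries labelled Cnr1+/+. Of the nuclear-retained RNAs, Malat1 was highest in Cnr1+/+ 2 (11918 cpm, against 9519 to 10511 cpm in the other libraries), while Neat1 (95.9 cpm) and Meg3 (15.2 cpm) were highest in Cnr1+/+ 3, and their relation to the rRNAs was not tested.

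Complex I takes electrons from NADH, and 7 of its core subunits are encoded here. Their summed level was 11630.3, 10122 and 9015 cpm in the libraries labelled Cnr1+/+ 1, 2 and 3 and 11743, 11359.8 and 14661 cpm in those labelled Cnr1-/- 1, 2 and 3, and the groups overlapped (exact permutation p = 0.2). mt-Nd4 (chrM:10167-11544), a proton-pumping subunit and the most abundant messenger of the chromosome, was at 5212, 4422 and 3800.0 cpm under the Cnr1+/+ label and 5054, 4909.8 and 6531 cpm under the Cnr1-/- label. The overlap came from Cnr1+/+ 1, which exceeded 2 of the 3 libraries labelled Cnr1-/-. mt-Nd1 (chrM:2751-3707), at the quinone-binding site, was at 2677, 2376 and 2309 cpm under the Cnr1+/+ label and 2826, 2741 and 3500.5 cpm under the Cnr1-/- label, with every Cnr1-/- library above every Cnr1+/+ library as deposited and overlapping groups under the 3 other scalings. mt-Nd2 (chrM:3914-4951), another pumping subunit, was at 2502, 2239.9 and 1821 cpm under the Cnr1+/+ label and 2574, 2334 and 3016 cpm under the Cnr1-/- label, and its groups overlapped. The largest messenger, mt-Nd5 (chrM:11742-13565), was at 601, 531 and 382 cpm under the Cnr1+/+ label and 566, 583 and 717 cpm under the Cnr1-/- label. It was low in Cnr1+/+ 3, while Cnr1+/+ 1 exceeded 2 Cnr1-/- libraries.

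The smaller complex I genes were read at lower levels. mt-Nd3 (chrM:9459-9806) was at 565, 494 and 656 cpm under the Cnr1+/+ label and 654, 708 and 794 cpm under the Cnr1-/- label, and it alone among the protein genes was lowest in Cnr1+/+ 2 rather than in Cnr1+/+ 3. mt-Nd4l (chrM:9877-10173), whose last 7 bases are the first 7 of mt-Nd4, was at 52.5, 39.9 and 38.3 cpm under the Cnr1+/+ label and 48.3, 63.0 and 76.3 cpm under the Cnr1-/- label. Cnr1-/- 1 was below Cnr1+/+ 1 there. mt-Nd6 (chrM:13552-14070, minus strand) was the least abundant protein gene at 21.8, 19.1 and 7.99 cpm under the Cnr1+/+ label and 20.9, 20.4 and 27.0 cpm under the Cnr1-/- label, which is 76 to 226 reads. Its values were similar in 5 libraries, and Cnr1+/+ 3 was below every other one; its log2 fold change of 0.59 ± 0.27 (SE; adjusted p = 0.809) became 0.15 without that library (limma). The counting of strand is not given in the sources used here, so reads from the opposite strand cannot be told apart from its own. Of the 7 genes, 5 had a nominal p under 0.05, all higher under the Cnr1-/- label (against 5.09% of all genes tested), and mt-Nd2 and mt-Nd4, with log2 fold changes of 0.28 ± 0.14 (SE; adjusted p = 0.829) and 0.30 ± 0.15 (SE; adjusted p = 0.829), did not (limma). Under the 3 other scalings only mt-Nd3 and mt-Nd4l of these genes had a nominal p under 0.05. With 1 library left out, the lowest log2 fold changes of mt-Nd2 and mt-Nd4 were 0.15 and 0.17.

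In the remaining complexes 5 of the 6 genes had groups that did not overlap as deposited, all with the Cnr1-/- label higher (against 8.85% of all genes tested). Of these 5, mt-Atp8 alone kept groups that did not overlap under the 3 other scalings. mt-Cytb (chrM:14145-15288), the cytochrome b of complex III, was at 2381, 2135 and 1941 cpm under the Cnr1+/+ label and 2536, 2414 and 3120.4 cpm under the Cnr1-/- label, with a log2 fold change of 0.32 ± 0.13 (SE; adjusted p = 0.792) by limma. mt-Co2 (chrM:7013-7696), the complex IV subunit that receives electrons from cytochrome c, was at 2201, 2221 and 1921 cpm under the Cnr1+/+ label and 2406, 2458 and 3039 cpm under the Cnr1-/- label, with 0.31 ± 0.13 (SE; adjusted p = 0.792). Without Cnr1-/- 3 the log2 fold changes of mt-Cytb and mt-Co2 were 0.21 and 0.20. Neither gene passed the nominal threshold of 0.05 without Cnr1+/+ 3 or without Cnr1-/- 3. mt-Co3 (chrM:8607-9390), also of complex IV, was at 1671, 1673 and 1663 cpm under the Cnr1+/+ label and 1798, 1827 and 2324 cpm under the Cnr1-/- label. Its 3 Cnr1+/+ libraries were nearly equal and below all Cnr1-/- libraries, and it still did not pass the threshold, with 0.24 ± 0.13 (SE; adjusted p = 0.839) by limma, and 0.12 without Cnr1-/- 3. mt-Co1 (chrM:5328-6872), the catalytic subunit of complex IV, was at 689.9, 713 and 565 cpm under the Cnr1+/+ label and 693, 756 and 916 cpm under the Cnr1-/- label. Its groups overlapped, and its log2 fold change of 0.26 ± 0.13 (SE; adjusted p = 0.825) by limma passed the nominal threshold of 0.05 narrowly; it was 0.15 without Cnr1-/- 3 and no longer passed without Cnr1+/+ 3, Cnr1-/- 2 or Cnr1-/- 3.

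ATP synthase gave the smallest p among the members. mt-Atp6 (chrM:7927-8607), the subunit that forms the proton channel, was at 1411, 1331 and 1215 cpm under the Cnr1+/+ label and 1565, 1492 and 1899 cpm under the Cnr1-/- label. mt-Atp8 (chrM:7766-7969), a small subunit of the stator, was at 107, 103 and 69.4 cpm under the Cnr1+/+ label and 120.4, 133 and 146 cpm under the Cnr1-/- label. Every Cnr1-/- library exceeded every Cnr1+/+ library for both genes, and Cnr1+/+ 3 was the lowest for each. The log2 fold changes were 0.32 ± 0.13 (SE; adjusted p = 0.792) and 0.54 ± 0.15 (SE; adjusted p = 0.409) by limma. For mt-Atp8 the log2 fold change stayed between 0.34 and 0.65 when any 1 library was left out. The last 43 bases of mt-Atp8 are also the first 43 of mt-Atp6, both genes lie on 1 messenger, and the counting divides reads there. The ratio of mt-Atp8 to mt-Atp6 was 0.0758, 0.0771 and 0.0572 under the Cnr1+/+ label and 0.0770, 0.0892 and 0.0766 under the Cnr1-/- label, with overlapping groups (exact permutation p = 0.3).

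**Figure D2:**
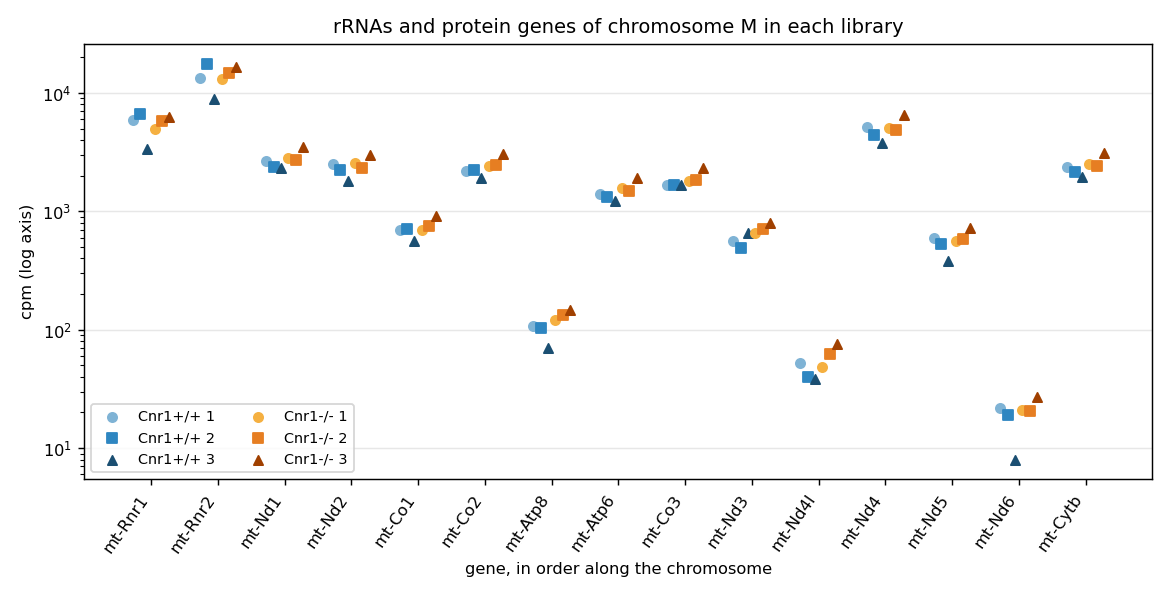
Level in cpm (logarithmic axis) of the 2 rRNAs and 13 protein genes in each of the 6 libraries, in the order of the genes along the chromosome, with blue marks for the Cnr1+/+ and orange marks for the Cnr1-/- label. For 12 of the 13 protein genes Cnr1+/+ 3 is the lowest mark, for all 13 Cnr1-/- 3 is the highest, and the rRNAs have their highest mark in Cnr1+/+ 2.

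Per kilobase of gene, the level of mt-Nd4 (3619.7 ± 663 cpm per kb, SD over 6 libraries) and mt-Co2 (3471 ± 550.2) came first, followed by mt-Nd1 (2861), mt-Co3 (2329), mt-Nd2 (2326), mt-Atp6 (2182), mt-Cytb (2117) and mt-Nd3 (1854). A step then separated these from mt-Atp8 (554), mt-Co1 (467), mt-Nd5 (309), mt-Nd4l (179) and mt-Nd6 (37.6 cpm per kb). Of the 12 neighbouring pairs in this order, 6 kept it in all 6 libraries. The pairs mt-Nd4 with mt-Co2 and mt-Co3 with mt-Nd2 each kept it in 3 libraries only, and mt-Nd2 with mt-Atp6, mt-Atp6 with mt-Cytb, mt-Cytb with mt-Nd3, and mt-Atp8 with mt-Co1 in 5. A level per length assumes reads along the whole gene, whereas this assay reads mainly one end, so the order describes these libraries only, and it changed when nuclear copies were added.

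Nuclear copies of the protein genes were counted as well, some of them at high levels. Among the listed genes, 12 nuclear pseudogenes matched a protein member over at least 50 bases at 90% identity or more (BLAST of GENCODE vM21 transcripts), 6 of them side by side on chromosome 1 and 6 elsewhere. The copies off chromosome 1 had at most 25.8 cpm in any library. Those on chromosome 1 were abundant, and together they took 7690.4 to 11529 cpm against 6059 to 9048 cpm for the 6 members they match. Gm28661, Gm10925, Gm28437 and Gm10222 were identical to mt-Co2, mt-Atp6, mt-Co3 and mt-Nd4l over the aligned bases, and Gm28438 differed from mt-Nd3, and Gm29216 from mt-Co1, by 1 mismatch each. A read inside an identical stretch cannot be told apart between chromosomes, and the authors' expectation-maximisation counting divides it between the candidates.

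The division was steady across libraries for some pairs and not for others. For mt-Atp6 the copy's share of the pair was 54.8% on average over the 6 libraries, and for mt-Co3 it was 51.4 to 51.6%. Gm29216 matches the last 483 bases of mt-Co1 and took 81.2 to 83.1% of that pair. With each copy added to its member, the order per kilobase changed at its top: mt-Co2 (5585 cpm per kb), mt-Atp6 (4826) and mt-Co3 (4802) came first, and mt-Nd4, unchanged at 3619.7, was the fourth in place of the first. mt-Nd3 (2903) moved from the eighth to the fifth place and mt-Co1 from the tenth to the seventh (2603 in place of 467 cpm per kb). The share of the copy was 34.9 to 41.9% for mt-Co2, 28.9 to 43.8% for mt-Nd3 and 33.5 to 46.2% for mt-Nd4l, so the level of these members also moved with the division. For mt-Nd3 the sum of both was 895, 879 and 923 cpm under the Cnr1+/+ label and 1030.2, 1022 and 1314 cpm under the Cnr1-/- label. Cnr1+/+ 2 was then still the lowest library, and the groups did not overlap as deposited but did under the 3 other scalings.

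**Figure D3:**
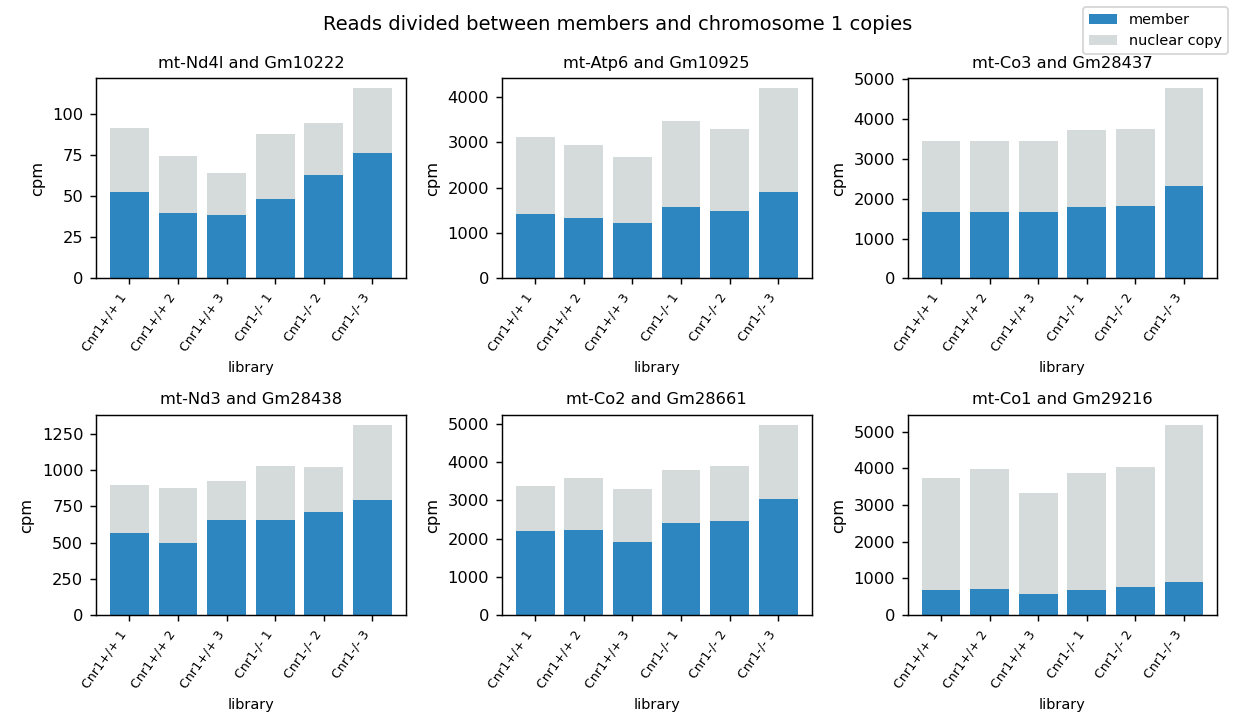
Level in cpm (axes from 0) assigned to each of 6 members (blue) and to its chromosome 1 copy (grey, stacked on top) in each library. The copy of mt-Co1 holds 81.2 to 83.1% of its pair, and the whole bar is highest in Cnr1-/- 3 in each of the 6 panels.

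The labels were compared again with each copy added to its member. The 6 pairs summed to 14681, 14906 and 13749 cpm in the libraries labelled Cnr1+/+ 1, 2 and 3 and 15944, 16095 and 20577 cpm in those labelled Cnr1-/- 1, 2 and 3, with no overlap of the groups (exact permutation p = 0.1, mean log2 difference 0.27). Under the 3 other scalings they overlapped. The 7 protein genes without a match of at least 50 bases among the listed genes of chromosome 1 were mt-Nd1, mt-Nd2, mt-Atp8, mt-Nd4, mt-Nd5, mt-Nd6 and mt-Cytb. They had a mean log2 difference of 0.30, and their groups overlapped (exact permutation p = 0.2). The last 43 bases of mt-Atp8 are also the first 43 of mt-Atp6, which Gm10925 matches from base 1. So mt-Atp8 is not free of copied sequence. The copies took 54.6 to 56.6% of the reads of the 6 pairs (exact permutation p = 0.4 between labels). With each copy added to its member, 10 members had a nominal p under 0.05 in place of 11 (limma), mt-Co1 being the one lost. All 10 were higher under the Cnr1-/- label, against 5.08% of all genes in that direction. The log2 fold change of mt-Nd4l was then 0.38 in place of 0.51.

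The tRNAs were read at low levels and all 22 exceeded 3 reads in all 6 libraries. The most abundant were mt-Tm (tRNA for methionine, mean 80.6 cpm), mt-Tg (glycine, 58.9 cpm), mt-Tw (tryptophan, 54.6 cpm), mt-Tp (proline, 43.0 cpm) and mt-Tv (valine, 42.6 cpm). mt-Ty (tyrosine) was the least abundant, at 6 to 33 reads. mt-Tl1 (leucine), mt-Tn (asparagine), mt-Ti (isoleucine), mt-Tq (glutamine), mt-Tl2 (leucine), mt-Te (glutamate), mt-Ta (alanine), mt-Td (aspartate) and mt-Tt (threonine) had means between 11.6 and 37.8 cpm. The other 7 with a mean under 10 cpm (mt-Tf, mt-Tc, mt-Tk, mt-Tr, mt-Ts1, mt-Ts2 and mt-Ty) did not enter the fit. mt-Tr, with the longest run of A among the tRNAs, was at 3.37, 8.68 and 4.42 cpm under the Cnr1+/+ label and 6.71, 7.37 and 12.6 cpm under the Cnr1-/- label, and its groups overlapped.

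Of the 15 tRNAs tested, 1 had a nominal p under 0.05 and was higher under the Cnr1-/- label, a share near the 5.09% of all genes tested. This was mt-Th, the tRNA for histidine that lies between mt-Nd4 and mt-Ts2 (chrM:11546-11612). It was at 28.4, 30.8 and 28.2 cpm in the libraries labelled Cnr1+/+ 1, 2 and 3 and 38.1, 37.2 and 38.4 cpm in those labelled Cnr1-/- 1, 2 and 3. The groups did not overlap (log2 fold change 0.38 ± 0.17 (SE; adjusted p = 0.809) by limma), and they did not overlap under the 3 other scalings either. Its log2 fold change was 0.30, 0.30 and 0.28 under those scalings and 0.36 to 0.42 with 1 library left out, while its nominal p was above 0.05 under each of those scalings and without any 1 of 4 libraries. mt-Tl2 and mt-Te also had every Cnr1-/- library above every Cnr1+/+ library, with log2 fold changes of 0.45 ± 0.23 (SE; adjusted p = 0.829) and 0.24 ± 0.23 (SE; adjusted p = 0.910), neither past the threshold. mt-Tg was the only tested member with a negative log2 fold change, at -0.015 ± 0.17 (SE; adjusted p = 0.995) by limma. Of the 22 tRNAs, 9 had their highest value in Cnr1-/- 2, the library with the blood cell RNA, and 8 in Cnr1-/- 3.

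The genes of the minus strand are mt-Nd6 and 8 tRNAs, and their summed level was 181, 158 and 106 cpm under the Cnr1+/+ label and 149, 184 and 179 cpm under the Cnr1-/- label. They made up 0.361 to 0.453% of the chromosome's RNA, with overlapping groups (exact permutation p = 1 for the share). Among the tRNAs, the ratio of the 8 on the minus strand to the 14 on the plus strand was 0.309 to 0.385, lowest in Cnr1+/+ 3 and highest in Cnr1+/+ 1. The ratio of mt-Nd6 to the other 12 protein genes was 0.00109, 0.00104 and 0.000488 under the Cnr1+/+ label and 0.00100, 0.00100 and 0.00103 under the Cnr1-/- label, so Cnr1+/+ 3 alone stood apart.

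In the fit over all 6659 genes that averaged 10 cpm or more, 30 of the 37 members were tested. Of these, 11 had a nominal p under 0.05 and were higher under the Cnr1-/- label (36.7% of 30, against 5.09% of all genes), and 0 were lower (against 0.931% of all genes). At an adjusted p under 0.1 there were 0 members by limma, against 0.105% of all genes, the smallest adjusted p among the members being 0.409 for mt-Atp8. The 11 were mt-Th and 10 protein genes (mt-Nd1, mt-Nd3, mt-Nd4l, mt-Nd5, mt-Nd6, mt-Cytb, mt-Co1, mt-Co2, mt-Atp6 and mt-Atp8). Groups that did not overlap, with the Cnr1-/- label higher, were found for 9 tested members (against 8.85% of all genes), 6 of them protein genes. The median log2 fold change was 0.28 over the 30 members and 0.32 over the 13 protein genes, which ran from 0.24 to 0.59, against 0.084 over all genes. Without Cnr1+/+ 3 the medians of members, protein genes and all genes were 0.16, 0.24 and 0.13, and without Cnr1-/- 3 they were 0.19, 0.21 and 0.092. Members leave the same precursors and share libraries, so they are not independent of each other.

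The counts of protein genes moved with the scaling, with the trend of the fit and with 2 libraries. Without the trend, 2 protein genes (mt-Atp8 and mt-Nd4l) were below 0.05 by limma, against 4.76% of all genes higher. With each library centred on its median, with quantile normalisation, or with equal totals without the mitochondrial chromosome, 3 members remained below 0.05 in each case (mt-Atp8, mt-Nd3 and mt-Nd4l, all higher under the Cnr1-/- label), against 2.96, 2.45 and 2.13% of all genes in that direction, and the median log2 fold change of the protein genes was 0.24, 0.18 and 0.22. The protein genes whose groups did not overlap, 6 as deposited, numbered 2, 1 and 2 (mt-Atp8 in each case, and mt-Nd3 in the first and the third), against 5.27, 4.85 and 4.16% of all genes. The tested tRNAs whose groups did not overlap were mt-Th, mt-Tl2 and mt-Te as deposited and under each of these scalings. Over all genes the split into higher and lower was 339 to 62 as deposited and 197 to 178, 163 to 197 and 142 to 210 under those scalings. Without Cnr1+/+ 3 the members below 0.05 numbered 4 of 30, against 8.29% of all genes in the same direction, and without Cnr1-/- 3 they numbered 2, against 3.74%. Without Cnr1-/- 2, the library with the blood cell RNA, they numbered 10, against 2.61%. mt-Nd3 was no longer below 0.05 without Cnr1+/+ 2, without Cnr1-/- 3 or without the trend of the fit. mt-Nd4l was no longer below it without Cnr1-/- 3, while mt-Atp8 stayed below it in each case. Without Cnr1+/+ 1, mt-Atp8 alone among the members passed an adjusted p of 0.1 (adjusted p = 0.0985 by limma). All 13 protein genes kept a positive log2 fold change under each scaling and without each library, with lowest values of 0.12 (mt-Co3) to 0.35 (mt-Nd4l) when 1 library was left out. The lowest of the 13 was 0.16 with median centring, only 0.016 with quantile normalisation and 0.14 with equal totals without the mitochondrial chromosome.

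**Figure D4:**
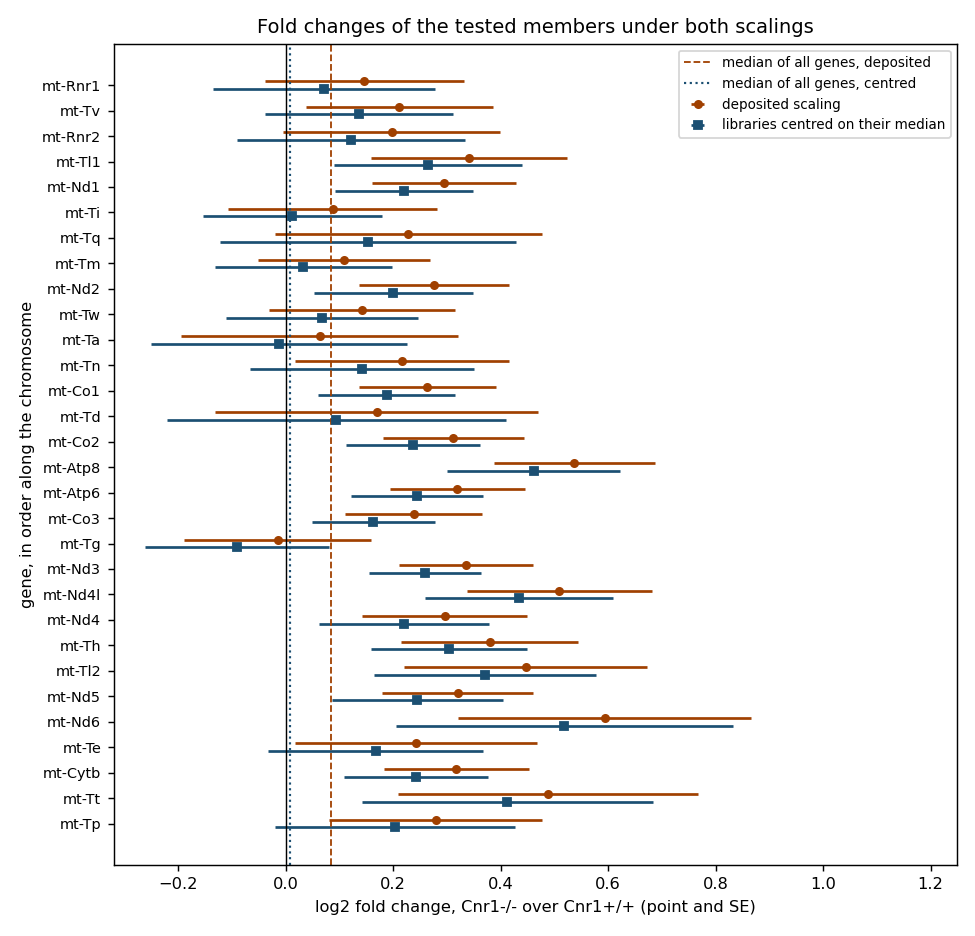
Log2 fold change, Cnr1-/- over Cnr1+/+, with its SE for the 30 tested members in the order of the chromosome, as deposited (circles) and with each library centred on its median (squares); vertical lines mark 0 and the median of all genes. All 13 protein genes lie right of 0 under both scalings, and centring moves every point to the left.

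The nuclear subunits of the same complexes were compared within each library, where scaling cancels. By the prefix of their symbols, 80 listed nuclear genes were taken as subunits of complexes I, III, IV and V. Such a choice can place a gene in the wrong complex or include one that is no subunit. Their summed level ranged 1.22-fold over the libraries against 1.59-fold for the 13 mitochondrial genes. The mitochondrial to nuclear ratio over all 4 complexes was 7.72, 7.22 and 5.67 in the libraries labelled Cnr1+/+ 1, 2 and 3 and 7.93, 6.60 and 9.38 in those labelled Cnr1-/- 1, 2 and 3. It was lowest in Cnr1+/+ 3 and highest in Cnr1-/- 3, but Cnr1-/- 2 lay below Cnr1+/+ 1 and 2, so the groups overlapped (mean log2 difference 0.21, exact permutation p = 0.4). The difference was 0.080 without Cnr1+/+ 3 and 0.087 without Cnr1-/- 3. Cnr1-/- 2 had the highest nuclear sum, 3098 cpm.

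**Figure D5:**
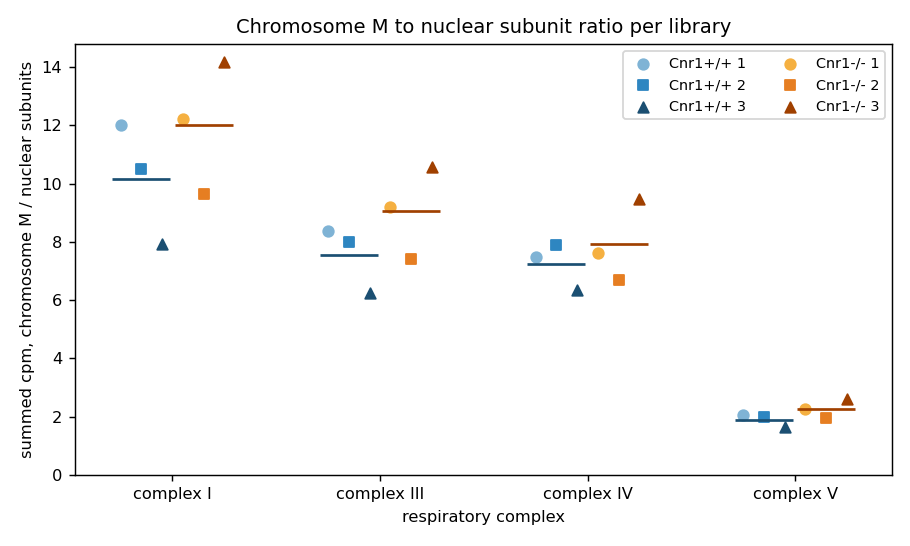
Ratio of summed cpm of chromosome M subunits to nuclear subunits (vertical axis from 0) for each complex and library, with horizontal lines at the group means. Complex I runs from 7.94 to 14.2 and complex V from 1.63 to 2.59, and the groups overlap in each complex.

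By complex, the ratio was 7.94 to 14.2 (mean log2 difference 0.25, exact permutation p = 0.4) for complex I. It was 6.25 to 10.6 (mean log2 difference 0.26, exact permutation p = 0.3) for complex III, 6.33 to 9.46 (mean log2 difference 0.12, exact permutation p = 0.5) for complex IV and 1.63 to 2.59 (mean log2 difference 0.25, exact permutation p = 0.3) for ATP synthase. These ratios leave out the chromosome 1 copies. With each copy added to its member, the ratio was 15.4 to 22.5 (mean log2 difference 0.10, exact permutation p = 0.6) for complex IV and 3.49 to 5.50 (mean log2 difference 0.25, exact permutation p = 0.3) for ATP synthase, more than 2-fold higher as a level in each library, and 8.20 to 14.7 (mean log2 difference 0.24, exact permutation p = 0.4) for complex I, and the groups still overlapped in each. Of the 71 nuclear subunits tested, 3 were higher and 1 was lower at a nominal p under 0.05, shares near those of all genes tested (5.09% higher and 0.931% lower). Named after their values were seen, they were Cox6a1, Uqcr10 and Uqcrc2 (log2 fold change 0.42, 0.42 and 0.33) and Ndufa5 (-0.35). The median log2 fold change of the tested nuclear subunits was 0.10, beside 0.32 for the mitochondrial ones.

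The nuclear genes that copy, transcribe and process the mitochondrial chromosome were measured at low levels. Of 17 genes of transcription and replication, 15 were listed and 6 tested, and of 25 genes of RNA processing 24 were listed and 9 tested, with 0 of the 15 at a nominal p under 0.05 by limma in either direction, against 5.09% higher and 0.931% lower of all genes, so that a count of 0 in 15 genes is near the background. The summed level was 135 to 174 cpm for the first list and 279.6 to 317 cpm for the second, each highest in Cnr1-/- 2. Ssbp1, the single-strand DNA binding protein of mitochondria, was at 29.4, 26.5 and 25.1 cpm under the Cnr1+/+ label and 32.5, 37.6 and 29.0 cpm under the Cnr1-/- label, and Polg, the mitochondrial DNA polymerase, at 23.6, 28.2 and 29.6 cpm under the Cnr1+/+ label and 26.4, 36.3 and 33.0 cpm under the Cnr1-/- label. Tfb2m, the transcription factor that opens the promoter, was at 11.3, 10.6 and 15.5 cpm under the Cnr1+/+ label and 19.7, 15.9 and 14.1 cpm under the Cnr1-/- label, with overlapping groups. Polrmt, the mitochondrial RNA polymerase, was below the minimum mean at 5.74 to 11.5 cpm. Lrpprc, which stabilises mitochondrial messengers, was at 49.3, 36.4 and 38.5 cpm under the Cnr1+/+ label and 47.3, 42.7 and 45.8 cpm under the Cnr1-/- label. Angel2 (mean 48.3 cpm) and Rexo2, a mitochondrial exonuclease of short RNAs (mean 22.4 cpm), were the others among the most abundant of the processing list, with log2 fold changes of 0.067 and 0.0021.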

How the data were processed

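Libraries were grouped by their labels (3 per group, 1 mouse each). The authors aligned trimmed reads to mm10 with STAR, quantified them by expectation-maximisation in Partek, and deposited cpm after TMM scaling. No unmapped column was present. 83.4 to 85.5% of the values above 0 were whole multiples of 1 read (tolerance 0.02), so count tests were not used. Ends of genes in the deposited table lie 1 base beyond those of GENCODE vM21, which are printed. The fit used limma 3.58.1 (R 4.3.3; lmFit, then eBayes with trend) on log2 (cpm + 0.1) of all genes averaging 10 cpm or more, with Benjamini-Hochberg adjustment over them, and was tested on simulated data. Nominal p under 0.05 and adjusted p under 0.1 were the thresholds. Fold changes on this scale understate low genes. Sums and ratios were compared by two-sided exact permutation tests over the libraries. The exact tests used the spread between mice alone. In the limma p-values the spread of each gene between mice is drawn toward that of other genes at a similar level. Named were all 37 genes, the matched nuclear copies, and of the partner lists the members with a nominal p under 0.05 and the 3 highest means; genes outside this rule were picked with their values in view. The nuclear copies were listed by symbol and replaced by all genes found by sequence, a change made after seeing the data. Members and lists were chosen with earlier results of these data known. Immediate early and heat shock genes of cell isolation (8 genes, 114 to 140.1 cpm), oligodendrocyte markers (6 genes, 420.2 to 853 cpm) and endothelial markers (5 genes, 16.2 to 26.0 cpm) were summed as well. Figures were drawn with matplotlib 3.10.9.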

Additional observations from a re-analysis of the deposited data

How the results depend on the processing

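The number of members with a nominal p under 0.05, all higher under the Cnr1-/- label, was 11 as deposited (against 5.09% of all genes in that direction). It was 3 with libraries centred on their median (2.96%), 3 with quantile normalisation (2.45%) and 3 with rescaling without chromosome M (2.13%). It was 4 with eBayes without trend (4.76%), and the cause was not tested. Pseudocounts of 1 and 0.01 left it at 11 (5.09% for each), no filter gave 12 (3.68%) and a minimum mean of 20 gave 10 (5.74%). With the copies added, chosen after seeing the data, it was 10 (5.08%). Leaving out 1 library at a time gave 2 to 15, with 4 without Cnr1+/+ 3 (against 8.29% of all genes higher), 2 without Cnr1-/- 3 (3.74%) and 15 without Cnr1+/+ 1 (4.36%), where the smallest adjusted p among the members was 0.0985. With the replicate block it was 9 (5.33%). Libraries with the same replicate number showed no shared deviation (correlations -0.056, -0.032 and -0.031), and whether they were paired is not given in the sources used here. The log2 ratio of the summed level, 0.22 as deposited, was 0.13, 0.10 and 0.11 with libraries centred on their median, with quantile normalisation and with rescaling without chromosome M, and 0.067 to 0.33 with 1 library left out. The other scalings of the protein genes' sum and the ratios with copies added were alternatives chosen after seeing the data.

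Small share differences changed direction: over the libraries left out, the rRNA share went from -0.15 to 0.057, the tRNA share from -0.17 to 0.035, the protein share from -0.044 to 0.16 and the minus strand share from -0.087 to 0.10, the last also at -0.061 without the rRNA rows in the total. The complex IV ratio went from -0.011 to 0.24 with 1 library left out, that of complex I from 0.078 to 0.39, of complex III from 0.13 to 0.40, of complex V from 0.15 to 0.36 and of all 4 from 0.080 to 0.34. By the mean of log2 values in place of sums, the differences for complexes I, III, IV and V were 0.33, 0.25, 0.27 and 0.36. Their exact permutation p-values were 0.5, 0.3, 0.4 and 0.2. mt-Rnr1 was at -0.014 with quantile normalisation; with 1 library left out mt-Rnr1 went from -0.15 to 0.33 and mt-Rnr2 from -0.061 to 0.43. No exact test of 3 against 3 libraries can pass 0.05, and 3′ reads limit the comparison of levels between genes.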
